A study of Homo sapiens with 13 samples.

Results

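The 7 genes described here, HMGCS1, MVD, IDI1, SQLE, CYP51A1, DHCR7 and INSIG1, belong to cholesterol synthesis and its control. They were chosen by name, and all 7 were found among the 9706 genes of the deposited expression tables. Of these, 6 encode enzymes of the synthesis route and INSIG1 encodes a sterol sensor of the endoplasmic reticulum. No uptake receptor is among the 7, so uptake is described further on from a wider list. A gene stands in these tables because the authors called it changed, at a false discovery rate (FDR) under 0.05, in at least 1 of 3 comparisons of a PGCLC group with 4i ESC. In 2 of the 3 tables every listed gene also passed a 2-fold change, while the one for DM+PGCLC holds some smaller changes. The comparisons with 4i ESC below are therefore not independent of how these genes came to be listed, and serve as a description of them.

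Cells build cholesterol from acetyl-CoA through mevalonate, isoprenoid units, squalene and lanosterol. When sterols are scarce in the endoplasmic reticulum, the transcription factor SREBP2 (gene SREBF2) is carried to the Golgi, cleaved there, and switches on most enzymes of the route. When sterols are plentiful, INSIG1, itself a target of SREBP2, holds the factor and its escort back.

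The RNA series followed cells of WIS2, an established human embryonic stem cell line, into primordial germ cell-like cells (PGCLC), with 10 bulk RNA libraries in 5 groups of 2. The 3 CUT&RUN samples among its 13 were not analysed here. In d8 DZ+PGCLC and d4 DZ+PGCLC, a derivative with a DAZL-tdTomato reporter, a SOX17 transgene switched by dexamethasone and a DMRT1 transgene switched by doxycycline was used. Its cells had BMP2 (500 ng/ml), SCF (100 ng/ml), EGF (50 ng/ml), ROCK inhibitor (10 µM) and dexamethasone for 1 day. Activin A (100 ng/ml), retinoic acid (20 µM), SCF, EGF, dexamethasone and doxycycline followed, for 2 days by the labels of both groups, with a sort for DAZL on day 8 or day 4. The other groups came from a derivative with NANOS3-tdTomato and DMRT1-Venus reporters and no transgene. DM+PGCLC were first induced with BMP2, SCF, EGF and ROCK inhibitor and on day 3 moved to activin A, retinoic acid, SCF and EGF for 6 more days. N3+PGCLC had only the first mix, and the labels give a sort for TNAP and NANOS3 for both groups. 4i ESC, the parent state, were sorted for TNAP after growth on mouse feeders with LIF, bFGF, TGFβ and small molecules that block the kinases GSK3, ERK, p38 and JNK.

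The PGCLC groups were kept in Advanced RPMI with B27, and 4i ESC in a medium with knockout serum replacement. Medium and cell state cannot be told apart in the comparisons with 4i ESC, and line, transgenes, dexamethasone and day cannot be told apart where DZ+PGCLC meet the other groups. The paper took N3+PGCLC on an earlier day than DM+PGCLC, so medium and time in culture cannot be told apart between these groups. In bulk RNA, fewer cells that express a gene and less RNA per cell cannot be told apart either.

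Levels are log2(RPKM + 0.1) as deposited, where RPKM scales reads by gene length and by mapped reads, so that levels can be set side by side between genes. Relative depth, from the step of the lowest values with 4i ESC replicate 1 as the unit, ran over 0.667 to 1.14. That step was shared by only 8 to 42 genes in each other library, so these depths are rough. Replicates correlated at 0.966 to 0.984 across the listed genes, which are not independent. Groups were compared with limma over all listed genes, and called means a fold change over 2 with an adjusted p under 0.05. Of the germ cell markers, SOX17 was called higher than in 4i ESC in all 4 PGCLC groups, DAZL in d8 DZ+PGCLC (4.46 on the log2 scale) and d4 DZ+PGCLC (5.52), and NANOS3 in DM+PGCLC (8.38) and N3+PGCLC (7.25). In DZ+PGCLC the SOX17 level may include reads of the transgene. DAZL and NANOS3 are the genes these groups were sorted on, so their higher levels are no independent check of the labels. TFAP2C and POU5F1, which early germ cells are known to express, were called lower than in 4i ESC in d8 DZ+PGCLC (-3.73 and -4.86) and d4 DZ+PGCLC (-4.13 and -6.67). The N3+PGCLC libraries stood apart from each other in markers of other lineages. The 11 listed of 13 endoderm and liver markers summed to 87.2 RPKM in N3+PGCLC replicate 1 and 491 RPKM in replicate 2, and the 13 of 13 amnion and mesoderm markers to 301 and 584 RPKM. In the libraries of the other groups these sums were at most 23.9 and 139 RPKM. Replicate 1 minus replicate 2 of N3+PGCLC ran from -0.30 to 0.42 over the 7 cholesterol genes, above 0 for 3 and below 0 for 4. The part of those markers in their values was not tested. The 5 listed of 8 markers of gonadal steroid-making cells summed to at most 24.6 RPKM in any library.

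Because the 7 genes are known to share SREBP control, the bases before their starts are shown. SREBP acts together with NF-Y, which binds CCAAT, and with SP1, which binds GGGCGG. RefSeq promoter sequences (GRCh38.p14) matched 6 of the 7 symbols, with 10 annotated starts in all. The 180 bases before the start that GENCODE 44 marks as canonical are given 5′ to 3′ on the gene's strand, with CCAAT in capitals, which reads ATTGG where the box lies on the other strand. The windows are chr5:43313413-43313592 for HMGCS1, chr16:88663092-88663271 for MVD, chr10:1049120-1049299 for IDI1, chr7:92134478-92134657 for CYP51A1, chr11:71448394-71448573 for DHCR7 and chr7:155297698-155297877 for INSIG1.
HMGCS1: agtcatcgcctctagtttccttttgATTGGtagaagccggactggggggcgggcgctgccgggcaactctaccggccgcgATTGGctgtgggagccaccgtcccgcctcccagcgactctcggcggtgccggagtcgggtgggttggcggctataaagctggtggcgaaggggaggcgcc
MVD: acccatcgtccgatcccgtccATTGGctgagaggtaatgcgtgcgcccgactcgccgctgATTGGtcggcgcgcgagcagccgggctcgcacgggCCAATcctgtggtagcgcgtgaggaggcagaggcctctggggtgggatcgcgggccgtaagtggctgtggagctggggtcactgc
IDI1: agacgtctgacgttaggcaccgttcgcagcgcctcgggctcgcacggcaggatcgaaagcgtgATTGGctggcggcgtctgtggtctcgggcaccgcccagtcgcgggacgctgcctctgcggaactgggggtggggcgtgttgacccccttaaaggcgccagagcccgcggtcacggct
CYP51A1: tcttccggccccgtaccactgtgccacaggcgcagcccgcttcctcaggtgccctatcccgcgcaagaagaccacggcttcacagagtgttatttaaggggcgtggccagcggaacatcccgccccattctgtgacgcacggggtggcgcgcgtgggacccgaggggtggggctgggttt
DHCR7: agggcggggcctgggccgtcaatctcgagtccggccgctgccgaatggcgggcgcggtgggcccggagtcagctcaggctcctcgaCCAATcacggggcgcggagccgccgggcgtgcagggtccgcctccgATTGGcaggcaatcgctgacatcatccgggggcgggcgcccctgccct
INSIG1: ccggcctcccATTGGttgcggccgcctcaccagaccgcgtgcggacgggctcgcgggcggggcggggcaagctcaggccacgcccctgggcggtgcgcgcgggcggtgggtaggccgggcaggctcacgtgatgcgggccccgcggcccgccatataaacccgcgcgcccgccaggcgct

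Within 250 bases before the canonical start, CCAAT was found on either strand in 5 of the 6 genes, CYP51A1 being without it, with 3 matches in MVD, 2 each in HMGCS1, IDI1 and DHCR7 and 1 in INSIG1. The second IDI1 match lies before the printed stretch. Over all 10 annotated starts of these genes, 6 held that box, against 32.0% of 35116 promoters of the same length and 31.6% of the 11065 promoters of listed genes. The SP1 letters GGGCGG, on either strand, were found at all 6 canonical starts, with 5 matches in INSIG1, and at 9 of the 10 annotated starts, against 42.6% of all promoters and 57.1% of those of listed genes. The sterol regulatory element, searched as TCACNCCAC on both strands, was in none of the 10 member starts and in 0.883% of all promoters. Among the synthesis, sensing and uptake genes searched it was found only before SREBF2, the gene of SREBP2 itself, as TCACCCCAC. The stretch around it, chr22:41832932-41833020 on the plus strand, is shown with the element in capitals.
SREBF2: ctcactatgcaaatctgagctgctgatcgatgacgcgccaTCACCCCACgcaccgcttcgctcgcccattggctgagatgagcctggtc

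A match is a description of letters and no evidence of binding, and a missing match covers only these letters and this window. SQLE and FDFT1 were among the genes not searched.

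On GRCh38, in GENCODE 44, HMGCS1 (ENSG00000112972.15) lies on the minus strand of chromosome 5 at 43287470 to 43313512. MVD (ENSG00000167508.12) lies on the minus strand of chromosome 16 at 88651935 to 88663161. IDI1 (ENSG00000067064.12) spans 1039152 to 1049119 of chromosome 10, minus strand. SQLE (ENSG00000104549.12) spans 124998497 to 125022283 of chromosome 8, plus strand. CYP51A1 (ENSG00000001630.17) and INSIG1 (ENSG00000186480.13) are both on chromosome 7, CYP51A1 at 92084987 to 92134803 on the minus strand and INSIG1 at 155297776 to 155310235 on the plus strand. DHCR7 (ENSG00000172893.17) spans 71428193 to 71452868 of chromosome 11, minus strand. All 7 are protein-coding, and the levels are of the whole gene. Reads of CYP51A1 can be shared with processed pseudogenes, so its level is less certain.

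All 7 genes had their highest level in 4i ESC. Their summed level was 138 and 134 RPKM in d8 DZ+PGCLC, 113 and 106 RPKM in d4 DZ+PGCLC, 180 and 191 RPKM in DM+PGCLC and 158 and 154 RPKM in N3+PGCLC, against 696 and 474 RPKM in 4i ESC. The mean of each PGCLC group was thus 18.8% to 31.7% of that of 4i ESC. No library of a PGCLC group reached the lower 4i ESC library for any of the 7 genes.

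**Figure D1:**
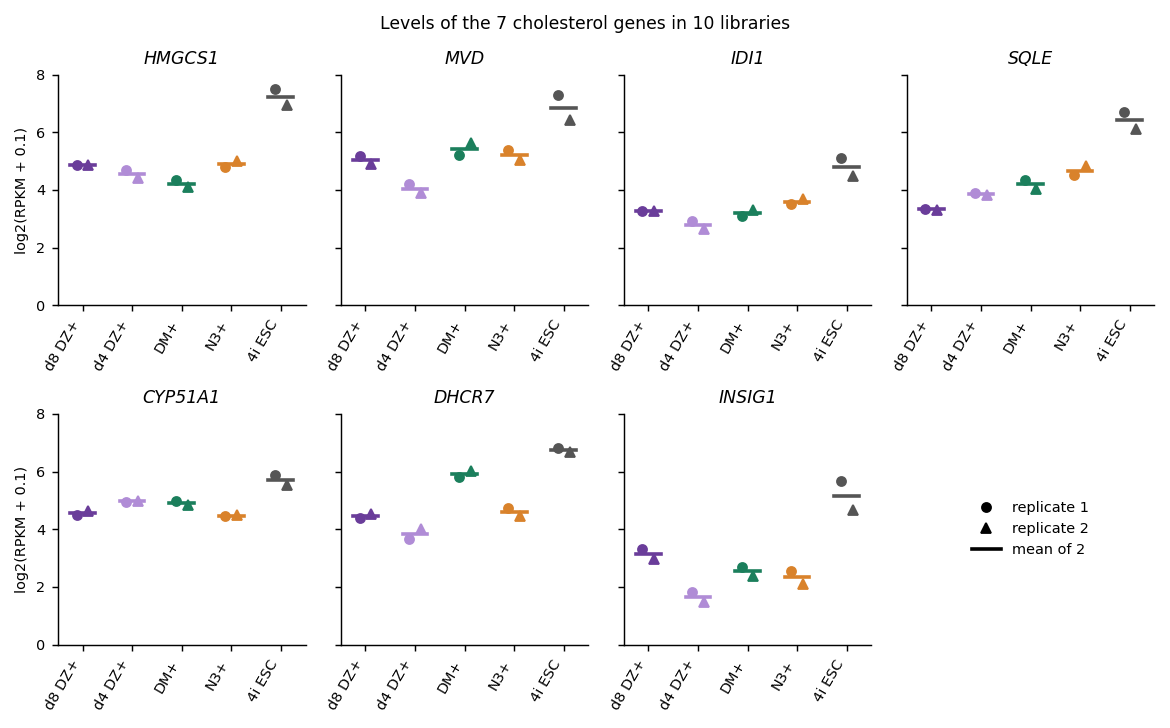
Level of each of the 7 cholesterol genes, log2(RPKM + 0.1) on the vertical axis, in the 10 libraries. Circles are replicate 1, triangles replicate 2 and bars the mean of the 2; the groups run from d8 DZ+PGCLC on the left to 4i ESC on the right, where every gene is highest, for example INSIG1 at 5.66 and 4.67.

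HMGCS1 encodes the cytosolic HMG-CoA synthase, an early enzyme of the mevalonate arm. Its level was 4.88 and 4.87 in d8 DZ+PGCLC, 4.69 and 4.41 in d4 DZ+PGCLC, 4.33 and 4.09 in DM+PGCLC and 4.81 and 5.02 in N3+PGCLC, against 7.49 and 6.94 in 4i ESC. DM+PGCLC held its lowest libraries, and every PGCLC library was well below both of 4i ESC. It averaged 18.4 RPKM in DM+PGCLC, its lowest group, and 151 RPKM in 4i ESC, where it was the most abundant of the 7. In limma it was 8.03-fold lower in DM+PGCLC than in 4i ESC, a log2 difference of -3.0 ± 0.21 (SE, adjusted p = 5.99e-05). In N3+PGCLC the difference from 4i ESC was -2.30 ± 0.21 (adjusted p = 0.000467).

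MVD, mevalonate diphosphate decarboxylase, makes the first isoprenoid unit. MVD stood at 5.19 and 4.89 in d8 DZ+PGCLC, 4.22 and 3.88 in d4 DZ+PGCLC, 5.20 and 5.62 in DM+PGCLC and 5.39 and 5.04 in N3+PGCLC, against 7.28 and 6.41 in 4i ESC. The d4 DZ+PGCLC libraries were the lowest, and those of N3+PGCLC overlapped with both DM+PGCLC and d8 DZ+PGCLC. It was 6.96-fold lower in d4 DZ+PGCLC than in 4i ESC (log2 difference -2.80 ± 0.31, adjusted p = 0.000323) and 2.71-fold lower in DM+PGCLC (-1.44 ± 0.31, adjusted p = 0.00592).

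IDI1, isopentenyl diphosphate isomerase, interconverts the 2 isoprenoid units. The IDI1 level was 3.28 and 3.27 in d8 DZ+PGCLC, 2.93 and 2.66 in d4 DZ+PGCLC, 3.10 and 3.32 in DM+PGCLC and 3.51 and 3.67 in N3+PGCLC, against 5.12 and 4.49 in 4i ESC. Here too d4 DZ+PGCLC held the lowest libraries, and those of d8 DZ+PGCLC fell inside the range of DM+PGCLC. IDI1 was 4.03-fold lower in d4 DZ+PGCLC than in 4i ESC (-2.01 ± 0.23, adjusted p = 0.000376). In N3+PGCLC it was 2.32-fold lower (-1.22 ± 0.23, adjusted p = 0.0068), but without 4i ESC replicate 1 the difference was -0.90 (adjusted p = 0.0362), below the 2-fold threshold.

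SQLE, squalene epoxidase, takes the first oxygen-requiring step of the sterol branch and is one of its rate-limiting enzymes. SQLE stood at 3.34 and 3.31 in d8 DZ+PGCLC, 3.88 and 3.83 in d4 DZ+PGCLC, 4.35 and 4.04 in DM+PGCLC and 4.51 and 4.82 in N3+PGCLC, against 6.70 and 6.12 in 4i ESC. The 5 groups did not overlap at any step of that order. The SQLE mean was 9.91 RPKM in d8 DZ+PGCLC and 86.7 RPKM in 4i ESC, an 8.49-fold lower level on the deposited scale (-3.09 ± 0.22, adjusted p = 5.16e-05). The neighbours d8 and d4 DZ+PGCLC (adjusted p = 0.102) and DM+PGCLC and N3+PGCLC (adjusted p = 0.139) were not separated by the test, and d4 DZ+PGCLC was not compared with DM+PGCLC.

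CYP51A1, lanosterol 14α-demethylase, starts the trimming of lanosterol, and its product is a sterol known to restart meiosis in mouse oocytes. CYP51A1 had the difference from 4i ESC nearest to 0 of the 7 in d8 DZ+PGCLC, d4 DZ+PGCLC and DM+PGCLC. It stood at 4.48 and 4.65 in d8 DZ+PGCLC, 4.96 and 4.97 in d4 DZ+PGCLC, 4.99 and 4.85 in DM+PGCLC and 4.46 and 4.48 in N3+PGCLC, against 5.87 and 5.54 in 4i ESC. Against 4i ESC it was 2.35-fold lower in N3+PGCLC (-1.23 ± 0.14, adjusted p = 0.00119) and 2.20-fold lower in d8 DZ+PGCLC (-1.14 ± 0.14, adjusted p = 0.000416). In d4 DZ+PGCLC and DM+PGCLC the differences of -0.74 and -0.79 had adjusted p = 0.00387 and 0.00289 but stayed under 2-fold, except that quantile normalization put DM+PGCLC at -1.01. The d8 DZ+PGCLC call was lost without 4i ESC replicate 1 (-0.98), after subtracting library medians (-0.92) and after quantile normalization (-0.88).

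DHCR7, 7-dehydrocholesterol reductase, performs the last step of the branch that ends in cholesterol. DHCR7 stood at 4.38 and 4.54 in d8 DZ+PGCLC, 3.65 and 4.00 in d4 DZ+PGCLC, 5.81 and 6.03 in DM+PGCLC and 4.73 and 4.45 in N3+PGCLC, against 6.83 and 6.68 in 4i ESC. DM+PGCLC kept the level nearest to 4i ESC, with a mean of 60.8 RPKM against 108 RPKM. The difference of -0.83 ± 0.17 was under 2-fold (adjusted p = 0.00524), although quantile normalization put it at -1.04 (adjusted p = 0.00151). In d4 DZ+PGCLC DHCR7 was 7.62-fold lower than in 4i ESC (-2.93 ± 0.17, adjusted p = 3.7e-05).

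INSIG1, the sterol sensor, had the lowest mean level of the 7 in each PGCLC group. INSIG1 stood at 3.30 and 2.97 in d8 DZ+PGCLC, 1.82 and 1.49 in d4 DZ+PGCLC, 2.70 and 2.38 in DM+PGCLC and 2.54 and 2.12 in N3+PGCLC, against 5.66 and 4.67 in 4i ESC. The mean was 3.07 RPKM in d4 DZ+PGCLC and 37.9 RPKM in 4i ESC, 11.4-fold lower (-3.51 ± 0.35, adjusted p = 0.000218). The 4i ESC libraries differed by 0.98, the widest gap between replicates among the 7 genes.

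Counted together, 7 of the 7 genes were called lower in d8 DZ+PGCLC than in 4i ESC, where 27.4% of the 9706 listed genes were called lower and 28.5% higher. In d4 DZ+PGCLC 6 were called lower (24.6% of listed genes lower, 17.3% higher), in DM+PGCLC 5 (21.1% lower, 23.0% higher) and in N3+PGCLC 7 (12.3% lower, 13.8% higher). None was called higher. The median difference of the 7 was -2.03 in d8 DZ+PGCLC, -2.66 in d4 DZ+PGCLC, -1.60 in DM+PGCLC and -1.74 in N3+PGCLC, beside medians of 0.01, -0.10, 0.00 and 0.00 over all listed genes. The 4 comparisons share the same 4i ESC libraries. With only the 4 libraries of N3+PGCLC and 4i ESC in the fit, HMGCS1, CYP51A1 and DHCR7 were called and SQLE, INSIG1, IDI1 and MVD were not, at adjusted p = 0.0547, 0.054, 0.0809 and 0.0844. In the same kind of fit for DM+PGCLC, MVD was not called (adjusted p = 0.0652).

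Subtracting the median of each library would raise differences from 4i ESC by 0.32 in d4 DZ+PGCLC and by 0.22 in d8 DZ+PGCLC, and shift the others by less than 0.1. Among all listed genes this turned the split of d4 DZ+PGCLC calls, with 58.7% of calls lower as deposited, 44.4% after median subtraction and 47.3% after quantile normalization. For the 7 genes the sign held. All 308 differences from 4i ESC, over the alternatives run for the 7 genes and 4 comparisons, were below 0, and the nearest to 0 was -0.42.

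**Figure D2:**
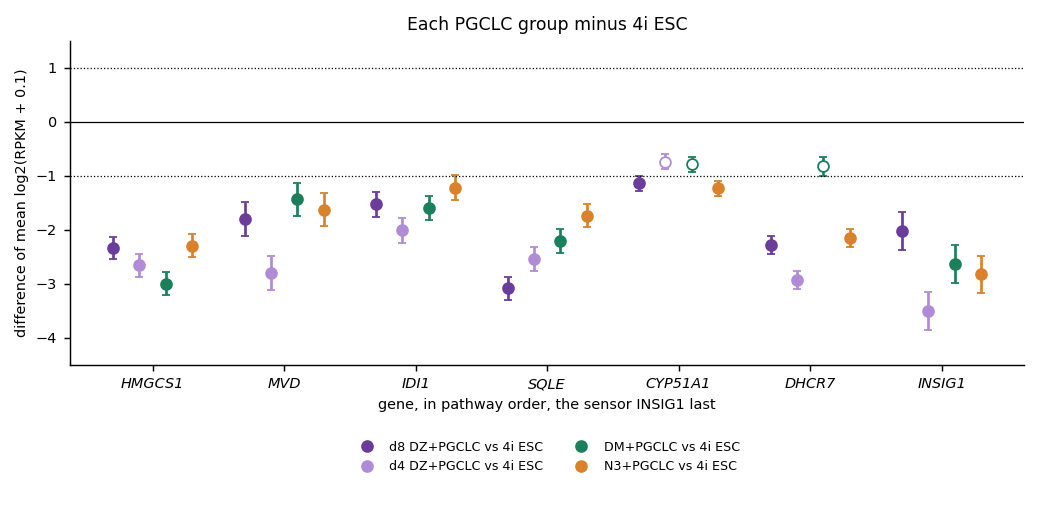
Difference of mean log2(RPKM + 0.1), each PGCLC group minus 4i ESC, for the 7 genes, with bars of 1 SE. Filled points were called (over 2-fold, dotted lines, and adjusted p under 0.05), open points were not: CYP51A1 in d4 DZ+PGCLC (-0.74) and DM+PGCLC (-0.79), and DHCR7 in DM+PGCLC (-0.83).

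The 4i ESC replicates themselves differed in these genes. Replicate 1 was above replicate 2 for 7 of 7, by 0.15 to 0.98 with a median of 0.59, while 43.8% of all listed genes were higher in replicate 1 and the median gap was 0.00. Among the 16 other listed synthesis genes, 11 were higher in replicate 1 and 4 lower, with a median of 0.44. In the other groups the median gap of the 7 genes was 0.01 in d8 DZ+PGCLC, 0.27 in d4 DZ+PGCLC, 0.14 in DM+PGCLC and -0.02 in N3+PGCLC. What set the 4i ESC libraries apart was not tested.

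Differences between PGCLC groups are taken between means without 4i ESC, although the spread in the fit was pooled over all 10 libraries and the genes were listed for a change from 4i ESC. With only the 4 libraries of each pair in the fit, the calls of the 7 genes given below were the same, with adjusted p = 0.0465 for DHCR7 in DM+PGCLC against N3+PGCLC, 0.00299 for DHCR7 in d8 DZ+PGCLC against DM+PGCLC, 0.0412 for MVD in d4 DZ+PGCLC against N3+PGCLC and 0.0323 for INSIG1 in d8 against d4 DZ+PGCLC. The first such comparison set DM+PGCLC, moved to activin A and retinoic acid and kept longer in culture, against N3+PGCLC. DHCR7 was the only one of the 7 called, 2.51-fold higher in DM+PGCLC (5.81 and 6.03 against 4.73 and 4.45, log2 difference 1.33 ± 0.17, adjusted p = 0.0016), where 13.9% of listed genes were called higher and 12.1% lower. CYP51A1 was 1.37-fold higher (0.45, adjusted p = 0.046) and HMGCS1 1.63-fold lower (-0.71, adjusted p = 0.0333), both under the fold threshold. For SQLE, IDI1, INSIG1 and MVD the 95% interval of the difference included 0, from -0.61 to 1.01 for INSIG1 and from -0.98 to 0.04 for SQLE.

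Between d8 DZ+PGCLC and DM+PGCLC, DHCR7 was again the only gene of the 7 called, 2.75-fold lower in d8 DZ+PGCLC (4.38 and 4.54 against 5.81 and 6.03, -1.46 ± 0.17, adjusted p = 0.000276). Of the listed genes 27.5% were called lower and 28.1% higher. After quantile normalization DHCR7 stood at -0.90 and lost the call, and HMGCS1 gained one at 1.12 (adjusted p = 0.00111), against 0.66 (adjusted p = 0.0223) as deposited. SQLE was 1.83-fold lower in d8 DZ+PGCLC (-0.87, adjusted p = 0.00886), and without DM+PGCLC replicate 2 it was called at -1.03 (adjusted p = 0.0179).

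In d4 DZ+PGCLC against N3+PGCLC, MVD alone was called, 2.25-fold lower (4.22 and 3.88 against 5.39 and 5.04, -1.17 ± 0.31, adjusted p = 0.0159), with 24.1% of listed genes called lower and 15.5% higher. The MVD call was lost without d4 DZ+PGCLC replicate 2 (-1.0, adjusted p = 0.0898), without N3+PGCLC replicate 1 (-0.99, adjusted p = 0.0853), after median subtraction (-0.83, adjusted p = 0.0543) and after quantile normalization (-0.91). Median subtraction shifts this comparison by 0.34 and brings the lower share of all calls to 46.5%, and quantile normalization to 47.8%, from 60.8% as deposited. SQLE, IDI1 and DHCR7 were 1.75-, 1.74- and 1.70-fold lower in d4 DZ+PGCLC, each with an adjusted p under 0.05 and under 2-fold.

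From day 4 to day 8 of the DZ+PGCLC, INSIG1 was called, 2.80-fold higher in d8 DZ+PGCLC (3.30 and 2.97 against 1.82 and 1.49, 1.48 ± 0.35, adjusted p = 0.0166). Of the listed genes 15.4% were called higher and 8.30% lower, a share of 64.9% higher among calls that became 58.0% after median subtraction and 48.3% after quantile normalization. The INSIG1 call needed both d8 DZ+PGCLC libraries and d4 DZ+PGCLC replicate 2. The difference was 1.32 without d8 DZ+PGCLC replicate 1 (adjusted p = 0.112), 1.65 without replicate 2 (adjusted p = 0.0684) and 1.32 without d4 DZ+PGCLC replicate 2 (adjusted p = 0.0775). MVD was 1.99-fold higher in d8 DZ+PGCLC (0.99, adjusted p = 0.0436), just under the threshold, and passed it after quantile normalization at 1.06. SQLE and CYP51A1 lay the other way, at -0.53 and -0.40 (adjusted p = 0.102 and 0.0689).

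**Figure D3:**
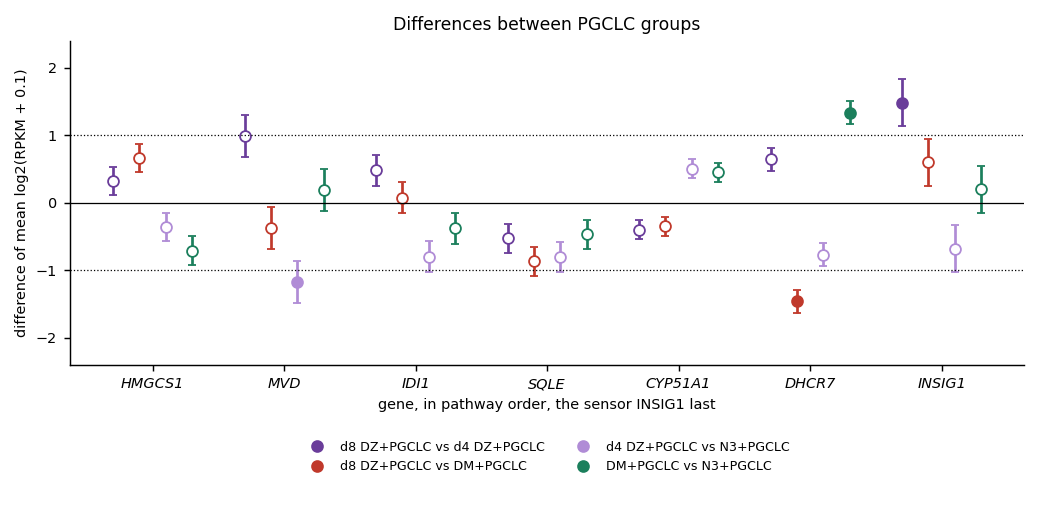
Difference of mean log2(RPKM + 0.1) between PGCLC groups for the 7 genes, the group named first in the legend minus the other, with bars of 1 SE. Only 4 points are filled as called: INSIG1 in d8 against d4 DZ+PGCLC (1.48), DHCR7 in d8 DZ+PGCLC against DM+PGCLC (-1.46) and in DM+PGCLC against N3+PGCLC (1.33), and MVD in d4 DZ+PGCLC against N3+PGCLC (-1.17).

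The rest of the synthesis route was read from a list of 23 genes, of which 22 were listed and 16 are not among the 7. In d8 DZ+PGCLC 10 of these 16 were called lower than in 4i ESC and 1 higher, in d4 DZ+PGCLC 11 lower, in DM+PGCLC 7 lower and 1 higher, and in N3+PGCLC 11 lower. Of all listed genes 27.4% were called lower in d8 DZ+PGCLC, 24.6% in d4 DZ+PGCLC, 21.1% in DM+PGCLC and 12.3% in N3+PGCLC. The shares called higher were 28.5%, 17.3%, 23.0% and 13.8% in the same order. The median difference of the 16 was -1.48 in d8 DZ+PGCLC, -1.47 in d4 DZ+PGCLC, -0.87 in DM+PGCLC and -1.18 in N3+PGCLC. Median subtraction and quantile normalization turned the sign of no called gene of the list, but they changed some counts. In d8 DZ+PGCLC the lower calls became 9 after median subtraction and 8 after quantile normalization, which also removed the higher call. In d4 DZ+PGCLC 9 were left lower after either. Quantile normalization gave 8 lower in DM+PGCLC, and N3+PGCLC kept 11 after either.

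Of the genes of the early arm, FDPS (farnesyl diphosphate synthase) and FDFT1 (squalene synthase) were called lower in all 4 PGCLC groups, FDFT1 by 2.27 in d8 DZ+PGCLC and 1.89 in N3+PGCLC on the log2 scale, and FDPS by 1.26 and 1.12. ACAT2, which joins acetyl-CoA units, was called lower in 3 groups and reached -0.99 in DM+PGCLC. MVK, mevalonate kinase, was called lower in d4 DZ+PGCLC (-1.01), a call lost after median subtraction, and in N3+PGCLC (-1.14). PMVK, the next kinase, went the other way, with 5.56 and 5.96 in DM+PGCLC against 4.32 and 3.68 in 4i ESC (1.76, adjusted p = 0.00308). IDI2, a second isomerase gene, was listed at 0 in all 4 libraries of N3+PGCLC and 4i ESC and stood at -1.03 and -1.65 in d8 DZ+PGCLC.

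After squalene, MSMO1, the C4-methylsterol oxidase, fell by 3.43 in d8 DZ+PGCLC, 2.93 in d4 DZ+PGCLC, 2.72 in DM+PGCLC and 2.72 in N3+PGCLC relative to 4i ESC. HSD17B7, of the same demethylation steps, was called lower in all 4 groups, between -1.91 in d8 DZ+PGCLC and -1.05 in d4 DZ+PGCLC, with the caution that it has near-identical copies. Its call in d4 DZ+PGCLC was lost after median subtraction. EBP and SC5D, of the last steps, were called lower in d8 DZ+PGCLC (-1.69 and -1.82), d4 DZ+PGCLC (-1.88 and -1.55) and N3+PGCLC (-1.19 and -1.26). NSDHL, the dehydrogenase of the C4 demethylation, was called lower in d4 DZ+PGCLC (-1.40) and stood at -0.74 in d8 DZ+PGCLC, -0.74 in DM+PGCLC and -0.69 in N3+PGCLC, each with an adjusted p under 0.05 and under 2-fold. Its difference of -0.71 between d4 DZ+PGCLC and N3+PGCLC was not called.

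In DM+PGCLC against N3+PGCLC, 2 of the 16 were called higher and 1 lower, shares near those of all listed genes (13.9% and 12.1%), with 4 higher and 1 lower after median subtraction and 1 each after quantile normalization. LSS, lanosterol synthase, stood at 5.78 and 6.21 in DM+PGCLC against 4.72 and 4.73 in N3+PGCLC (1.27, adjusted p = 0.00472), and PMVK was called higher as well (1.48, adjusted p = 0.0116). SC5D (0.96, adjusted p = 0.0603), LBR (0.98, adjusted p = 0.0538), MVK (0.86, adjusted p = 0.0939) and EBP (0.63, adjusted p = 0.016), of late sterol steps apart from MVK, were not called. FAXDC2 was called lower (-1.62, adjusted p = 0.00192). In d8 DZ+PGCLC against DM+PGCLC, 7 of the 16 were called lower and none higher, where 27.5% of listed genes were called lower and 28.1% higher, with SC5D at -1.52, LBR at -1.38, PMVK at -1.17, EBP at -1.13 and ACAT2 at -1.04. That count depended on scaling, with 4 lower and 2 higher after median subtraction and 0 lower and 1 higher after quantile normalization.

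**Figure D4:**
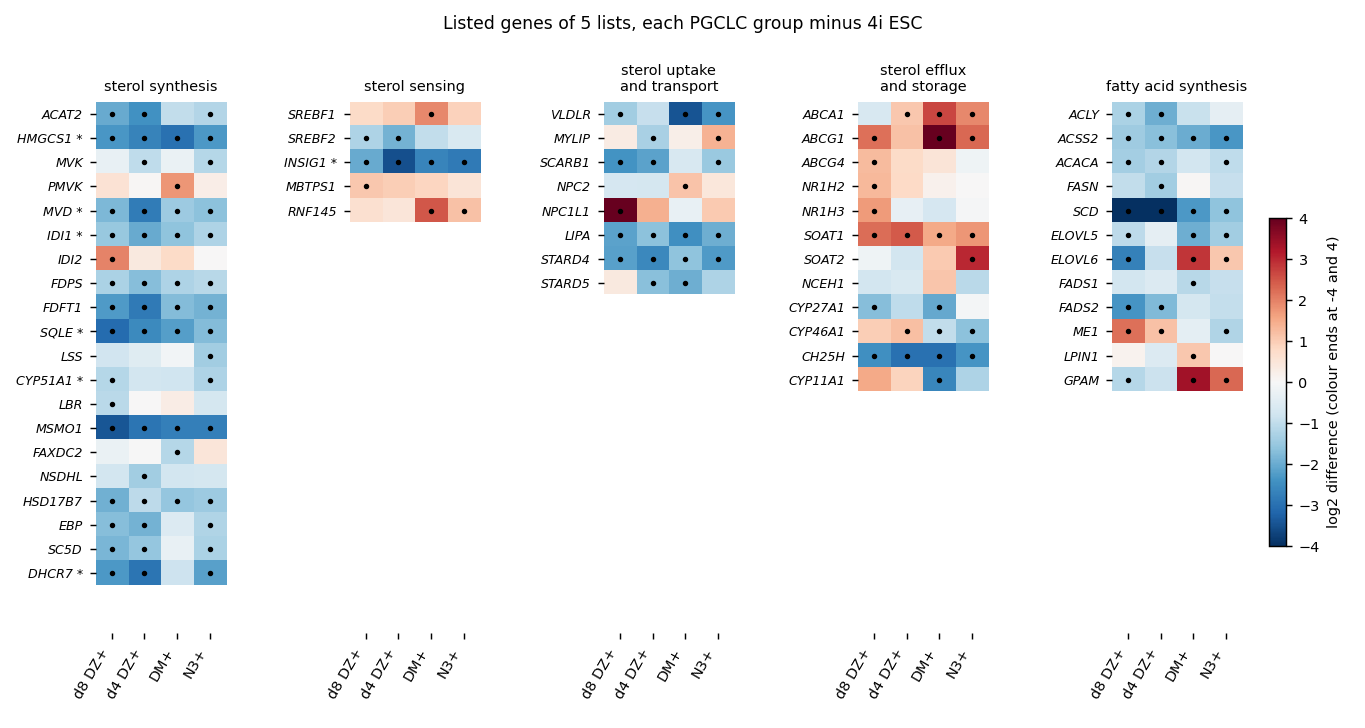
Log2 difference from 4i ESC (colour, blue lower and red higher, ends at -4 and 4) of listed genes of 5 lists in d8 DZ+PGCLC, d4 DZ+PGCLC, DM+PGCLC and N3+PGCLC, with a dot where the gene was called and a star beside the 7 genes. The synthesis column is mostly blue, with PMVK in DM+PGCLC (1.76) among the exceptions, while SOAT1 in the efflux column was called higher in all 4 groups.

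Of the 11 sensing genes, 6 were listed, INSIG1 among them. SREBF2 stood at 6.06 and 5.83 in d8 DZ+PGCLC, 5.15 and 5.46 in d4 DZ+PGCLC, 6.15 and 6.25 in DM+PGCLC and 6.58 and 6.59 in N3+PGCLC, against 7.32 and 7.07 in 4i ESC. It was called lower in d8 DZ+PGCLC (-1.25, adjusted p = 0.000451) and d4 DZ+PGCLC (-1.89, adjusted p = 0.000118), and the differences of -0.99 in DM+PGCLC and -0.61 in N3+PGCLC were under 2-fold. Quantile normalization removed the SREBF2 call in d8 DZ+PGCLC and added one in DM+PGCLC, while median subtraction changed neither. SREBF1, whose product drives mainly fatty acid genes, was called higher than in 4i ESC in DM+PGCLC, with 6.40 and 6.61 against 4.54 and 4.62 (1.93, adjusted p = 0.000895). It was also above 4i ESC, by less than 2-fold, in d8 DZ+PGCLC (0.76, adjusted p = 0.0366), d4 DZ+PGCLC (0.98, adjusted p = 0.0173) and N3+PGCLC (0.93, adjusted p = 0.0312). Median subtraction and quantile normalization each added 2 higher calls among the other sensing genes in d4 DZ+PGCLC. As deposited, SREBF1 lay just under the threshold there. SREBF1 was called lower in d8 DZ+PGCLC than in DM+PGCLC (-1.17, adjusted p = 0.00607), a call lost after median subtraction. Quantile normalization likewise left 1 of the 2 lower calls among the other sensing genes there. The SREBF1 difference of 0.99 between DM+PGCLC and N3+PGCLC was not called.

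Of the other sensing genes, MBTPS1, the site-1 protease that cleaves SREBP, was called higher in d8 DZ+PGCLC (1.09, adjusted p = 0.000157). By less than 2-fold it was above 4i ESC in the other groups too. The differences were 0.99 in d4 DZ+PGCLC (adjusted p = 0.000308), 0.85 in DM+PGCLC (adjusted p = 0.000592) and 0.52 in N3+PGCLC (adjusted p = 0.00925). RNF145, a ubiquitin ligase of the endoplasmic reticulum, was called higher in DM+PGCLC (2.48, adjusted p = 0.000149) and in N3+PGCLC (1.17, adjusted p = 0.00628) and, against DM+PGCLC, lower in d8 DZ+PGCLC (-1.85).

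Uptake and transport genes numbered 11 listed of 18. In d8 DZ+PGCLC 7 were called lower than in 4i ESC and 1 higher, in d4 DZ+PGCLC 8 lower, in DM+PGCLC 6 lower and 2 higher and in N3+PGCLC 6 lower and 2 higher, beside 27.4%, 24.6%, 21.1% and 12.3% of listed genes called lower in these groups. In the same order, 28.5%, 17.3%, 23.0% and 13.8% of listed genes were called higher. After median subtraction 6 were lower in d8 DZ+PGCLC and 7 in d4 DZ+PGCLC, and quantile normalization gave 6 and 8. Either gave 1 higher in d4 DZ+PGCLC, and quantile normalization left 1 higher in DM+PGCLC. STARD4, a sterol carrier of the cytosol, stood at 2.99 and 2.95 in d8 DZ+PGCLC, 2.78 and 2.31 in d4 DZ+PGCLC, 3.58 and 3.44 in DM+PGCLC and 2.80 and 2.92 in N3+PGCLC, against 5.39 and 4.87 in 4i ESC, and was called lower in all 4 groups, between -2.58 in d4 DZ+PGCLC and -1.62 in DM+PGCLC. LIPA, the lysosomal lipase that frees cholesterol from its esters, was called lower in all 4 groups as well, between -2.46 in DM+PGCLC and -1.63 in d4 DZ+PGCLC. SCARB1, the HDL receptor, was called lower in d8 DZ+PGCLC (-2.38), d4 DZ+PGCLC (-2.13) and N3+PGCLC (-1.47), and VLDLR in d8 DZ+PGCLC (-1.38), DM+PGCLC (-3.46) and N3+PGCLC (-2.35). STARD5 was called lower in d4 DZ+PGCLC (-1.68) and DM+PGCLC (-1.94). NPC2, which moves cholesterol out of the lysosome, was called higher in DM+PGCLC (1.13). NPC1L1, known from cholesterol absorption in the gut, stood at 2.13 and 2.34 in d8 DZ+PGCLC against -2.86 and -2.64 in 4i ESC (4.99, adjusted p = 0.000207), a value that the added 0.1 RPKM makes smaller than the change itself.

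Genes of efflux and storage, 12 listed of 15, were called in both directions, with 5 higher and 2 lower than in 4i ESC in d8 DZ+PGCLC, where 28.5% of listed genes were called higher and 27.4% lower. In d4 DZ+PGCLC 3 were called higher and 1 lower (17.3% and 24.6% of listed genes), in DM+PGCLC 3 higher and 4 lower (23.0% and 21.1%) and in N3+PGCLC 4 higher and 2 lower (13.8% and 12.3%). With 12 genes, several of these counts lie near the shares of all listed genes. They also moved with scaling. Median subtraction gave 7 higher in d8 DZ+PGCLC, 5 in d4 DZ+PGCLC and 4 in DM+PGCLC, and quantile normalization 5, 4 and 3. In DM+PGCLC 3 were lower after either, and N3+PGCLC kept its counts. ABCA1, the transporter that loads cholesterol onto apolipoprotein A1, stood at 2.58 and 2.26 in d8 DZ+PGCLC, 4.05 and 4.23 in d4 DZ+PGCLC, 5.70 and 5.74 in DM+PGCLC and 5.06 and 4.91 in N3+PGCLC, against 2.96 and 3.16 in 4i ESC. It was called higher than 4i ESC in d4 DZ+PGCLC (1.08), DM+PGCLC (2.66) and N3+PGCLC (1.92), and lower in d8 than in d4 DZ+PGCLC (-1.72). ABCG1, a transporter that LXR receptors induce together with ABCA1, was called higher in d8 DZ+PGCLC (2.20), DM+PGCLC (4.06) and N3+PGCLC (2.29). MYLIP, a ubiquitin ligase that LXR receptors induce, belongs to the uptake list and is not in the efflux counts. It was called higher in N3+PGCLC (1.39, adjusted p = 0.00984) and lower in d4 DZ+PGCLC (-1.31).

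**Figure D5:**
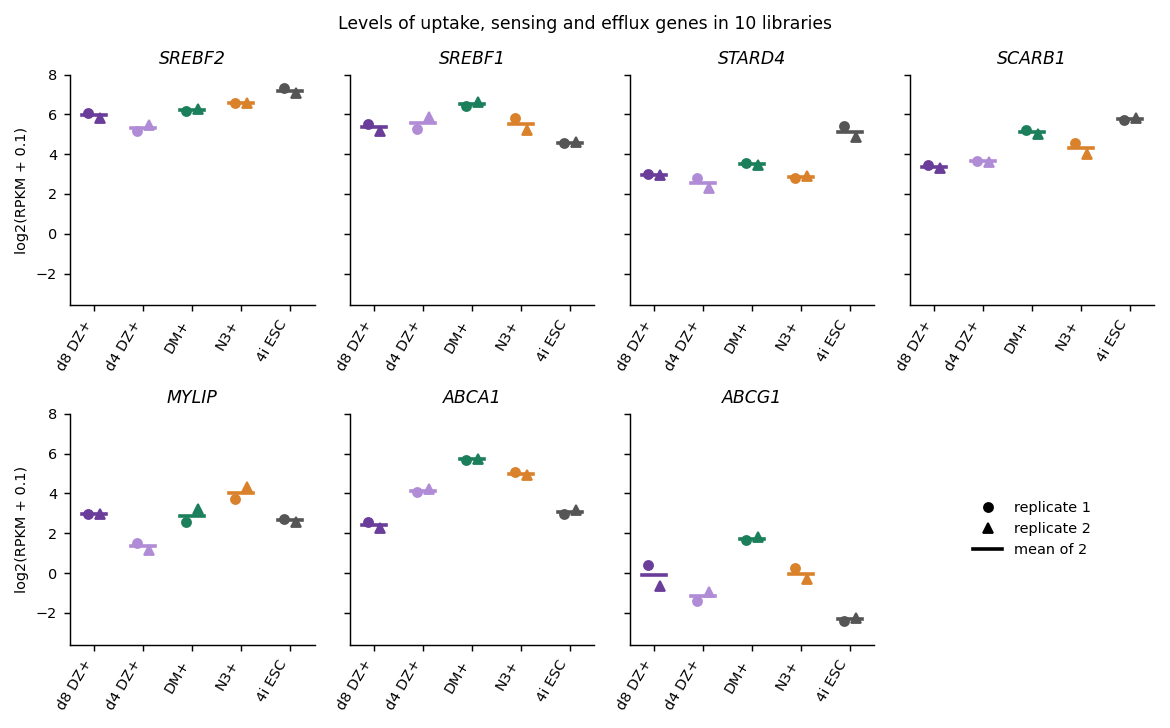
Level, log2(RPKM + 0.1), of SREBF2, SREBF1, STARD4, SCARB1, MYLIP, ABCA1 and ABCG1 in the 10 libraries (circles replicate 1, triangles replicate 2, bars the mean of the 2). STARD4 is highest in 4i ESC, while ABCA1 is highest in DM+PGCLC at 5.70 and 5.74.

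The LXR genes NR1H3 and NR1H2 were called higher in d8 DZ+PGCLC (1.71 and 1.30 on the log2 scale). SOAT1, which esterifies cholesterol for storage, was called higher in all 4 groups, between 1.52 in DM+PGCLC and 2.45 in d4 DZ+PGCLC. Its paralogue SOAT2, known from liver and gut, was called higher in N3+PGCLC (3.00), where it stood at -0.74 and 1.54 in replicates 1 and 2, beside endoderm and liver markers of 87.2 and 491 RPKM in the same libraries. CYP27A1, a liver enzyme of bile acid synthesis, likewise stood at 2.38 and 4.71 there, and was called lower than in 4i ESC in d8 DZ+PGCLC (-1.69) and DM+PGCLC (-2.06). The part of those markers in these values was not tested. CH25H, which makes 25-hydroxycholesterol, was low in 4i ESC (-0.09 and -0.61) and called lower in all 4 groups. CYP46A1, which makes 24-hydroxycholesterol, was called higher in d4 DZ+PGCLC (1.21) and lower in DM+PGCLC (-1.0) and N3+PGCLC (-1.63). In d8 DZ+PGCLC it stood at 0.99 (adjusted p = 0.032), just under 2-fold, and its DM+PGCLC call lay at the threshold. NCEH1, which frees stored cholesterol, was called higher in DM+PGCLC than in N3+PGCLC (2.17). CYP11A1, the first enzyme of steroid hormone synthesis, was called lower in DM+PGCLC (-2.61) and, against DM+PGCLC, higher in d8 DZ+PGCLC (4.11). The DM+PGCLC libraries stood at -1.63 and -3.32, the latter being 0 RPKM, so the added 0.1 RPKM shapes both differences.

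Within the 5 lists, without the 7 genes, 56 genes were listed. Between PGCLC groups, 8 of the 56 were called higher and 3 lower in d8 than in d4 DZ+PGCLC, near the 15.4% and 8.30% of all listed genes. In d8 DZ+PGCLC 9 were called higher and 20 lower than in DM+PGCLC (28.1% and 27.5% of listed genes), which became 12 higher and 15 lower after median subtraction and 12 higher and 11 lower after quantile normalization. Against N3+PGCLC, d4 DZ+PGCLC had 6 called higher and 14 lower (15.5% and 24.1% of listed genes), and 9 higher and 11 lower after either scaling. In DM+PGCLC 9 were called higher and 4 lower than in N3+PGCLC (13.9% and 12.1% of listed genes), with 13 and 5 after median subtraction and 5 and 5 after quantile normalization. The DM+PGCLC and N3+PGCLC count fell to 7 calls without N3+PGCLC replicate 2 and to 8 without DM+PGCLC replicate 2, and was 1 call with only the 4 libraries in the fit.

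Over the 10 libraries the 7 genes ran alongside each other, with Pearson's r between pairs from 0.64 for CYP51A1 and MVD to 0.94 for IDI1 and HMGCS1. These libraries fall into 5 groups, of which 4i ESC lay far from the rest, so the points are not independent and r is a description. Among 3991 other genes with a mean level of 3 or more, the 10 closest to the mean profile of the 7 included FDPS (r = 0.989), STARD4 (0.977), MAD2L2 (0.969), TRAP1 (0.968), TAGLN (0.966), FDFT1 (0.958), MSMO1 (0.953), TUBB2A (0.949) and FXYD5 (0.948). FDPS, STARD4, FDFT1 and MSMO1 are sterol genes of the lists. TAGLN, a smooth muscle and actin-binding gene, averaged 4.21 in d8 DZ+PGCLC, 3.30 in d4 DZ+PGCLC, 4.10 in DM+PGCLC and 4.24 in N3+PGCLC, against 8.53 in 4i ESC.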

How the data were processed

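Bulk RNA was measured in 10 libraries, made from ribosomal RNA-depleted total RNA by a strand-keeping protocol. Reads were, per the methods and processing notes, trimmed with Trim Galore and mapped with STAR to GRCh38.p13 with unique reads kept. Bowtie2 (2.2.5), HOMER and hg38 stand in the same notes. The authors computed RPKM with Cufflinks. The deposited values are log2(RPKM + 0.1), 1 column per library. A header line calls these values means, but they are given per library. The authors also deposited log2 fold changes and FDR values from edgeR and 8 tables of gene set enrichment, none of which was used here. Reads shared with processed pseudogenes, such as those of CYP51A1, could lower or mix a gene's value.

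The 3 tables hold 2577, 5392 and 6862 genes and were joined to 9706, with the same 10 columns in each. Groups came from the sample labels, and the study gives the 2 libraries of a group as independent biological replicates. Counts and depth were not among the values used, so precision rests on the spread between the 2 libraries of a group, pooled over the 5 groups and moderated across genes. Differences were tested with limma (3.58.1, R 4.3.3, intensity trend) in 1 fit of the 5 group means over all 10 libraries, with Benjamini-Hochberg adjustment over all listed genes in each of 8 comparisons, in place of the count model that the study used. The procedure was tested on simulated data. P-values cover preselected genes. Alternatives were a pseudocount of 1, median subtraction, quantile normalization, no trend, a mean level of 0 or more (6850 genes kept), a replicate block, the 4 libraries alone, and each library left out. A crossed block was chosen after seeing the data. Same-numbered libraries did not deviate together (correlations of -0.129 to 0.1), so the numbers were not read as pairs.

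The members, gene lists and comparisons were chosen with earlier results of these data known. The rule for named genes took the 7 members, every listed synthesis and sensing gene, and genes of the other lists called in 2 or more of the 8 comparisons. Some of these are not reported here and are left out of the figures, though the counts over lists include them. Promoters and coordinates came from RefSeq (GRCh38.p14) and GENCODE 44 and were matched by symbol and gene ID; versions of 3 member IDs differ.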

Additional observations from a re-analysis of the deposited data

Results flagged for a closer look

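Among the 7 genes, 4 changes from 4i ESC differed between 2 PGCLC groups by a direct test of those groups (limma, p-values adjusted over 9706 listed genes, 2 libraries each). DHCR7 was higher in DM+PGCLC than in N3+PGCLC by 1.33 on the log2 scale (adjusted p = 0.0016, higher in both libraries). DHCR7 was lower in d8 DZ+PGCLC than in DM+PGCLC at -1.46 (adjusted p = 0.000276, lower in both libraries), and at -0.90 after quantile normalization. MVD was lower in d4 DZ+PGCLC than in N3+PGCLC at -1.17 (adjusted p = 0.0159), a call that either scaling alternative removed. INSIG1 was higher in d8 than in d4 DZ+PGCLC by 1.48 (adjusted p = 0.0166) and lost the call without any of 3 of the 4 libraries. Line, day and transgene cannot be told apart in the comparisons of DZ+PGCLC with the other groups, nor medium and day between DM+PGCLC and N3+PGCLC. Groups of 2 were too small for a check for single outlying libraries.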

How the results depend on the processing

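The 7 genes kept their direction in all 308 differences from 4i ESC that were run, and no call of theirs was reversed in any of the 8 comparisons. Of 224 values with 1 library left out, 7 lost a call and 1 gained one, and of 399 under the other alternatives 10 lost and 4 gained one. With only the 4 libraries of 2 groups, N3+PGCLC against 4i ESC gave 3 of the 7 genes, 10 pathway list genes and 902 listed genes called, against 7, 33 and 2531 with all libraries. The same fit gave 1 pathway list gene and 685 listed genes for DM+PGCLC against N3+PGCLC (13 and 2517 with all libraries) and 2514 listed genes for d4 DZ+PGCLC against N3+PGCLC (3846 with all libraries). Median subtraction and quantile normalization each left 0 of the 7 genes called between d4 DZ+PGCLC and N3+PGCLC, and quantile normalization gave 2 between d8 and d4 DZ+PGCLC. There, a pseudocount of 1 gave 1491 listed genes called (2299 as deposited). Fits of 4 libraries have fewer samples, and for the other changes the cause was not tested.

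With 1 library left out, calls among the 7 genes ran from 0 to 1 between d4 DZ+PGCLC and N3+PGCLC, from 1 to 2 between d8 DZ+PGCLC and DM+PGCLC and from 0 to 1 between d8 and d4 DZ+PGCLC. Pathway list calls ran from 7 to 19 between DM+PGCLC and N3+PGCLC and from 7 to 8 between d8 and d4 DZ+PGCLC. Calls over all listed genes ran from 1607 to 2343 for N3+PGCLC against 4i ESC, from 1634 to 2656 for DM+PGCLC against N3+PGCLC and from 1258 to 1924 for d8 against d4 DZ+PGCLC.

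With the replicate number as a block, the 7 genes gave the same counts of calls in each of the 8 comparisons (7 for N3+PGCLC against 4i ESC), and listed genes called moved to 2449 there. With the DM+PGCLC numbers crossed, 1 of the 7 genes, 12 pathway list genes and 2510 listed genes were called against N3+PGCLC. Depth limits genes near 0, such as IDI2 and CH25H, and not the 7, which stood at 1.49 or above in every library.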

Other observations

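Fatty acid synthesis, the other arm of SREBP control, had 12 listed of 15 genes. In d8 DZ+PGCLC 8 were called lower than in 4i ESC and 1 higher (27.4% and 28.5% of all listed genes), and the 8 became 6 after median subtraction and 5 after quantile normalization. In d4 DZ+PGCLC 6 were called lower and 1 higher (24.6% and 17.3% of listed genes), in DM+PGCLC 4 lower and 3 higher (21.1% and 23.0%) and in N3+PGCLC 5 lower and 2 higher (12.3% and 13.8%). The 6 of d4 DZ+PGCLC became 5 after median subtraction and 4 after quantile normalization. SCD, the stearoyl-CoA desaturase, stood at 3.69 and 3.73 in d8 DZ+PGCLC, 4.13 and 3.67 in d4 DZ+PGCLC, 6.35 and 5.27 in DM+PGCLC and 6.47 and 6.55 in N3+PGCLC, against 8.15 and 8.09 in 4i ESC, and was called lower in all 4 groups. ACSS2, which makes acetyl-CoA from acetate, was also called lower in all 4, between -2.32 in N3+PGCLC and -1.43 in d8 DZ+PGCLC. ACLY, FADS2 and ACACA were called lower in both DZ+PGCLC groups, with -1.26 for ACLY, -2.36 for FADS2 and -1.35 for ACACA in d8 DZ+PGCLC, and FASN in d4 DZ+PGCLC (-1.39). Median subtraction removed the ACACA call in d4 DZ+PGCLC, where it stood at -1.17 as deposited.

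ELOVL6 and GPAM were both lower in d8 DZ+PGCLC than in DM+PGCLC. ELOVL6, a fatty acid elongase, stood at 1.75 and 2.60 in d8 DZ+PGCLC against 7.66 and 7.83 in DM+PGCLC (log2 difference -5.57, adjusted p = 1.41e-05 in limma), with 4.80 and 4.94 in 4i ESC between them. GPAM, which starts glycerolipid synthesis, stood at 1.27 and 1.34 in d8 DZ+PGCLC against 6.02 and 5.57 in DM+PGCLC (-4.49, adjusted p = 2.36e-05). ME1, malic enzyme, went the other way, with 3.69 and 3.92 in d8 DZ+PGCLC against 0.93 and 1.47 in DM+PGCLC (2.60, adjusted p = 0.000219). LPIN1 was called higher in DM+PGCLC than in 4i ESC (1.09), and ELOVL5 lower in d8 DZ+PGCLC (-1.06), DM+PGCLC (-1.94) and N3+PGCLC (-1.38).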
